A study of Homo sapiens with 8 samples.

Results

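The 10 genes described here encode the enzymes and helpers that turn newly made collagen chains into secreted, trimmed procollagen: the prolyl 4-hydroxylase subunits P4HA1, P4HA2, P4HA3 and P4HB, the lysyl hydroxylases PLOD1, PLOD2 and PLOD3, the collagen chaperone SERPINH1, and the extracellular processing factors PCOLCE and BMP1. They were taken by gene name from a fixed list, which was chosen with earlier results of these data known. All 10 were found among the 25268 gene symbols of the tables and among the 11486 genes tested, so no member was lost to the filter on low values. Polyadenylated RNA was sequenced from 2 independent lines of human fibroblasts (line 1 and line 2), both labelled as population controls. The 2 treatments were SUPT4H1 siRNA and a control siRNA without a target, each applied in 2 replicates per line, which gives 8 samples. All were grown in DMEM with 10% fetal serum and antibiotics, and the siRNA was delivered with a lipid reagent. SUPT4H1 encodes SPT4, a small subunit of the elongation factor DSIF. An siRNA acts transiently and lowers its target without deleting it. Nothing in the labels ties the replicate treatments to separate cultures or days. The p-values over both lines thus reflect the variation among 8 samples of 2 lines, part of which may be technical. Those within a line and for the difference between the lines rest on the spread between the 2 replicates of a group alone. They do not show whether a difference between the lines would recur in another round of treatment.

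Collagen chains are modified while they enter the endoplasmic reticulum. Prolyl 4-hydroxylase, a tetramer of catalytic alpha subunits and the beta subunit P4HB, hydroxylates prolines and thereby stabilises the triple helix, whereas lysyl hydroxylases prepare lysines for glycosylation and later cross-linking. The chaperone HSP47, product of SERPINH1, binds the folded helix until it leaves for the Golgi, and outside the cell BMP1, helped by PCOLCE, removes the C-terminal propeptide so that fibrils can form. In cultured fibroblasts this machinery serves a large output of type I collagen.

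Values are FPKM (fragments scaled by transcript length and by library depth) as deposited. Changes are differences of log2(FPKM + 1), SUPT4H1 siRNA minus control, from limma with the line as a block, with Benjamini-Hochberg adjustment over all 11486 genes and a threshold of 0.05, and "rose" and "fell" are used for genes past it. SUPT4H1 itself had mean levels of 25.6 FPKM (line 1) and 27.2 FPKM (line 2) with control siRNA and of 1.4 and 1.72 FPKM with its own siRNA, 5.46 and 6.3% of control (log2 change -3.42, SE 0.034, adjusted p = 2.1e-10). Depth relative to the first control library was 0.82 to 1.127. Of 13 fibroblast markers tested, 7 fell and 1 rose, where 15.0% of all genes fell and 26.4% rose. The summed level of the fibroblast markers was 13506 to 15262 FPKM in controls and 11955 to 15015 after SUPT4H1 siRNA. TCF21, a transcription factor of some fibroblasts, had a mean of 0.00283 FPKM. Among the markers of other cell types, 5 genes were tested. The summed epithelial markers ranged from 0.82 to 6 FPKM in controls and from 1.5 to 10.6 after SUPT4H1 siRNA, the leukocyte markers from 45.2 to 52.2 and from 59.8 to 78.1, and the smooth muscle and pericyte markers from 8.55 to 19.4 and from 8.88 to 26.5. The endothelial markers stayed within 0.18 to 0.293 FPKM and the neural and melanocyte markers within 0.977 to 2.71 in all samples. KRT19 (mean 3.56 FPKM), CD68 (55.8), CNN1 (5.91) and LMOD1 (7.56) rose with the line as block, and CD14 (2.68) did not pass. Of the 4 calls, that of CD68 alone held with no replicate block (adjusted p = 0.0471). Those of KRT19 and CNN1 were also lost with no filter on FPKM (0.051 and 0.0699), KRT19 without control or SUPT4H1 line 2 replicate 2 (up to 0.0538) and CNN1 without any 1 of the 4 samples of line 2 (up to 0.0738), and neither passed in line 1 (0.211 and 0.418). The defining markers EPCAM, PECAM1, PTPRC, MYH11 and SOX10 had means of 0 to 0.133 FPKM. The part of these markers in the results below was not tested. In bulk RNA, fewer cells of a type and less RNA per cell cannot be told apart.

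In the controls of line 1 the order of the mean levels, from the highest, was PCOLCE (934 FPKM), SERPINH1 (471), P4HB (359), PLOD1 (157), P4HA1 (131), P4HA2 (75.4), PLOD3 (50), BMP1 (40.3), PLOD2 (28.2) and P4HA3 (2.33). FPKM are scaled by transcript length, so these levels can be compared between genes. In line 2 the order was P4HB (618), PCOLCE (535), SERPINH1 (509), PLOD1 (224), P4HA1 (164), P4HA2 (125), PLOD3 (62.9), PLOD2 (52.9), BMP1 (38.6) and P4HA3 (2.15). The replicate values of neighbours in either order did not overlap, although the deposited intervals of PCOLCE and SERPINH1 did in the controls of line 2. Both controls of line 1 were above both of line 2 for PCOLCE and BMP1, and below both for P4HA1, P4HA2, P4HB, PLOD1, PLOD2, PLOD3 and SERPINH1, while those of P4HA3 overlapped.

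**Figure D1:**
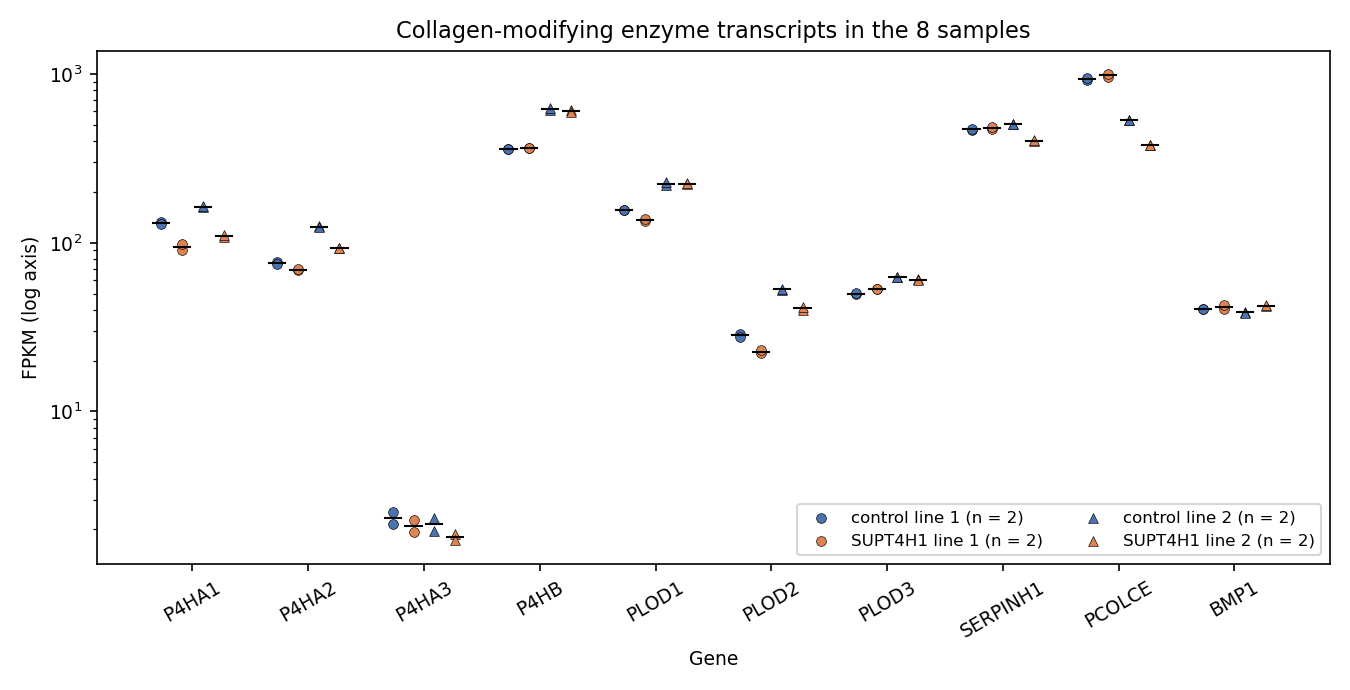
FPKM of the 10 genes (log axis) in each of the 8 samples, with colour for the siRNA, marker shape for the line, and a black bar for the mean of the 2 replicates. P4HA1, P4HA2 and PLOD2 lie lower after SUPT4H1 siRNA in both lines, while P4HB stays at about its control level.

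After SUPT4H1 siRNA, P4HA1, P4HA2 and PLOD2 fell and BMP1 rose, and the other 6 members did not pass. Over all genes tested 15.0% fell and 26.4% rose, so 3 falls and 1 rise among 10 genes stand beside a large background of calls. The median change of the 10 was -0.146, with 8 below 0, P4HB among them at -0.0017. Over all 11486 genes tested the median was 0.031, with 4622 below 0. In the limma fit without the line, which follows the grouping the submitters describe, 1 member fell, P4HA1 (adjusted p = 0.036), and 0 rose, where 1.73% of all genes fell and 3.53% rose. With an unadjusted threshold of 0.05 in that fit, 1 member would have risen, BMP1 (adjusted p = 0.203). P4HA1, P4HA2 and PLOD2 were also the members in which both SUPT4H1 siRNA samples lay below both controls in each line, an order found in 16.5% of all genes, and BMP1 was the only member with the opposite order, found in 28.7%.

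Of the 3 catalytic alpha subunits of prolyl 4-hydroxylase, P4HA1 and P4HA2 fell and P4HA3 did not pass. P4HA1 is the main alpha subunit of most cells (hg19, 10:74766980-74856732). P4HA1 stood at 133 and 129 FPKM in the controls of line 1 and at 90.7 and 98.2 FPKM after SUPT4H1 siRNA. In line 2 it stood at 162 and 165 against 108 and 111 FPKM. All 4 SUPT4H1 siRNA samples were below all 4 controls, so the groups did not overlap even across the lines. The mean fell from 147 ± 19.1 to 102 ± 9.42 FPKM (SD, n = 4 each), a log2 change of -0.52 (SE 0.034, 95% interval -0.60 to -0.44, adjusted p = 1.9e-05), so that line 1 kept 72.2% and line 2 kept 67% of control. A lower change was found in 1.24% of the genes tested. P4HA1 was called in every one of the 17 alternative fits, with adjusted p of 1.35e-05 to 0.036.

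P4HA2, the second alpha subunit (5:131528304-131563556), stood at 76.5 and 74.4 FPKM in the controls of line 1 and at 68.6 and 69.8 FPKM after SUPT4H1 siRNA. In line 2 the values were 125 and 124 against 93.7 and 93.2 FPKM. Within each line the groups did not overlap, but the SUPT4H1 siRNA samples of line 2 were above the controls of line 1. P4HA2 fell by 0.27 on the log2 scale (SE 0.054, adjusted p = 0.00452, and 0.567 with no replicate block). The fall was larger in line 2, at 75% of control, than in line 1, at 91.7%, and the difference of -0.29 between the lines passed its own test (adjusted p = 0.00222). The fall in line 1 alone (-0.12, adjusted p = 0.00781) was lost without control line 1 replicate 1 (adjusted p = 0.0669). The files also list P4HA2-AS1, an antisense transcript that overlaps P4HA2 and was looked up after the values of P4HA2 were seen. It fell from 7.03 ± 1.55 to 4.49 ± 0.908 FPKM (SD, n = 4 each, adjusted p = 8.48e-05), and since no use of strand is given in the sources used here, reads of the overlap cannot be assigned to either gene.

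P4HA3, the least abundant alpha subunit (11:73977694-74022721), stood at 2.15 and 2.52 FPKM in the controls of line 1 and at 2.28 and 1.93 after SUPT4H1 siRNA. Line 2 gave 1.97 and 2.34 against 1.87 and 1.72 FPKM. The groups overlapped in line 1 and not in line 2, and the difference of -0.14 (95% interval -0.28 to 0.0027) did not pass (adjusted p = 0.105). Its deposited intervals were 12.9 to 16.8% of the value on either side, against 3.19 to 3.55% for P4HA1, so its level is known less precisely.

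P4HB, the beta subunit, is also protein disulfide isomerase, a general folding enzyme (17:79801034-79818544). It stood at 357 and 360 FPKM in the controls of line 1 and at 365 and 366 after SUPT4H1 siRNA, and at 610 and 625 against 611 and 598 FPKM in line 2. The groups overlapped in line 2, and in line 1 the SUPT4H1 siRNA samples were slightly higher. The difference was -0.0017 on the log2 scale with a 95% interval of -0.061 to 0.057 (adjusted p = 0.966), an interval that leaves out changes as large as those of P4HA1 and P4HA2. The summed FPKM of the 3 alpha subunits was 59.2 and 57.1% of the P4HB level in the controls of line 1 and 44.3 and 46.4% after SUPT4H1 siRNA. In line 2 it was 47.5 and 46.6% against 33.4 and 34.4%. The ratio of alpha to beta transcripts was thus lower after SUPT4H1 siRNA in each line, by more than the replicates differed, and P4HB also pairs with other partners.

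The makeup of the alpha subunit pool shifted slightly towards P4HA2. P4HA1 made up 62.8 and 62.6% of the summed alpha FPKM in the controls of line 1 and 56.1 and 57.8% after SUPT4H1 siRNA, and P4HA2 made up 36.2 and 36.2% and then 42.4 and 41.1%. In line 2 the P4HA1 share was 56 and 56.7% against 53.1 and 53.9%. P4HA3 was at or below 1.41% in every sample. These shares are descriptions without a test.

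Among the lysyl hydroxylases, PLOD2 fell in both lines, and PLOD1 and PLOD3 did not pass over both lines. PLOD2, which hydroxylates lysines in the telopeptides of collagen (3:145787228-145879282), stood at 28.8 and 27.7 FPKM in the controls of line 1 and at 22.1 and 23 after SUPT4H1 siRNA. Line 2 gave 52.5 and 53.3 against 40.1 and 41.7 FPKM. The groups did not overlap within a line, and all 4 values of line 2 were above all 4 of line 1. PLOD2 fell by 0.34 on the log2 scale (SE 0.027, 95% interval -0.40 to -0.28, adjusted p = 5.26e-05, and 0.623 with no replicate block). It was left at 80% of control in line 1 and 77.2% in line 2, and the difference between the lines of -0.06 did not pass (95% interval -0.17 to 0.06, adjusted p = 0.544).

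PLOD1, the lysyl hydroxylase of the collagen helix (1:11994724-12035599), stood at 157 and 157 FPKM in the controls of line 1 and at 135 and 137 after SUPT4H1 siRNA, and at 220 and 229 against 222 and 225 in line 2. The groups were apart in line 1 and overlapped in line 2. The change was -0.21 in line 1 (adjusted p = 8.6e-04) and -0.0076 in line 2 (adjusted p = 0.848), and the difference of 0.20 between the lines passed (adjusted p = 0.0173). Over both lines PLOD1 did not pass (-0.11, 95% interval -0.20 to -0.013, adjusted p = 0.0655), but it did after median-ratio scaling (adjusted p = 0.017), with array weights (0.0453) and without control line 2 replicate 1 (0.0283). The call of the difference was lost with no mean-variance trend (adjusted p = 0.0536) and without any 1 of 5 samples: control line 1 replicate 1 or 2, SUPT4H1 line 1 replicate 1, and SUPT4H1 line 2 replicate 1 or 2 (adjusted p = 0.0549 to 0.0725).

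PLOD3, which can also glycosylate hydroxylysine (7:100849258-100861011), stood at 49.4 and 50.5 FPKM in the controls of line 1 and at 53 and 53 FPKM after SUPT4H1 siRNA. In line 2 the values were 62.9 and 63 against 60.7 and 60.1 FPKM. The groups did not overlap within a line, but the order was opposite in the 2 lines. PLOD3 rose by 0.083 in line 1 (adjusted p = 0.035), a call that was lost without any 1 of 6 samples (the 4 of line 1 and the SUPT4H1 siRNA samples of line 2, adjusted p up to 0.189). The call in line 1 was also lost after median-ratio scaling (0.054, adjusted p = 0.126) and with no mean-variance trend (adjusted p = 0.0822). In line 2 PLOD3 was at -0.059 (adjusted p = 0.0883, and 0.01 after median-ratio scaling). Over both lines the change of 0.012 did not pass (95% interval -0.059 to 0.083, adjusted p = 0.784). The difference between the lines of -0.14 passed narrowly (adjusted p = 0.0418). That call did not survive leaving out any single sample (adjusted p = 0.077 to 0.144). The row of ZNHIT1 overlaps PLOD3 in the tables and rose from 27.2 ± 2.23 to 29.4 ± 3.12 FPKM (SD, n = 4 each, log2 change 0.11, adjusted p = 0.0357).

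PLOD1 made up 64.3 to 68.8% of the summed lysyl hydroxylase FPKM in every sample. The PLOD2 share was 12.2 and 11.7% in the controls of line 1 and 10.5 and 10.8% after SUPT4H1 siRNA, and 15.7 and 15.4% against 12.4 and 12.8% in line 2. The PLOD3 share was 21 and 21.5% against 25.2 and 24.8% in line 1, and 18.8 and 18.2% against 18.8 and 18.4% in line 2. The share of PLOD2 was thus lower after SUPT4H1 siRNA in each line, while that of PLOD3 was higher in line 1 and overlapped in line 2.

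**Figure D2:**
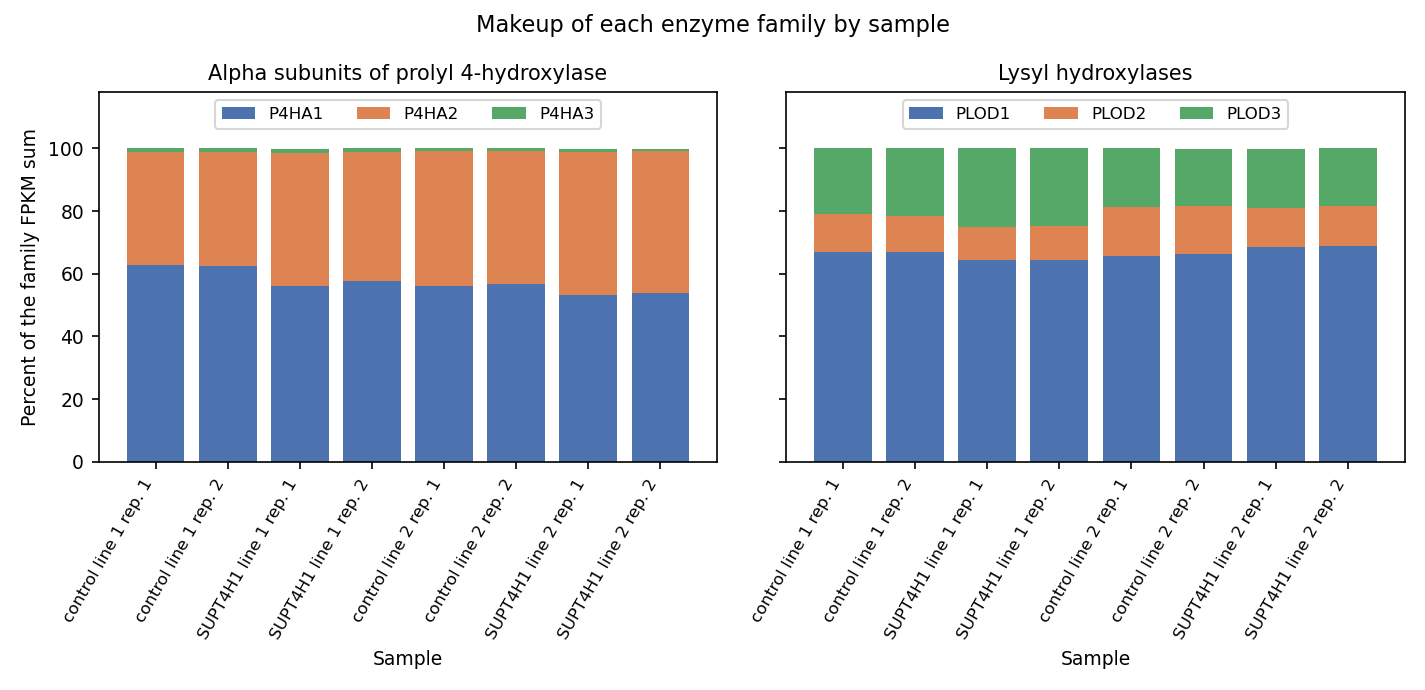
Share of each gene in the summed FPKM of the 3 alpha subunits (left) and of the 3 lysyl hydroxylases (right), in percent, 1 bar per sample. P4HA1 takes 62.8 and 62.6% of the alpha sum in the controls of line 1 and a smaller share, 56.1 and 57.8%, after SUPT4H1 siRNA.

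The promoters of the 3 members that fell in both lines, and of P4HB, whose level did not move with them, are shown because these genes differ in response although their products work on the same chains. The RefSeq table used (GRCh38.p14) matched 8 of the 10 members, all but P4HA3 and BMP1. The 250 bases before each start were searched on both strands for ACGTG, a form of the core of the element bound by hypoxia-inducible factors. ACGTG also lies inside the E-box CACGTG. Forms of the core with another first base were not searched and are not marked. Matches are in capitals, and all else is in lower case. ACGTG was found in 18.5% of 35116 windows of 250 bases, and CACGTG in 6.34%.
P4HA1 (chr10:73096867-73097116, minus strand): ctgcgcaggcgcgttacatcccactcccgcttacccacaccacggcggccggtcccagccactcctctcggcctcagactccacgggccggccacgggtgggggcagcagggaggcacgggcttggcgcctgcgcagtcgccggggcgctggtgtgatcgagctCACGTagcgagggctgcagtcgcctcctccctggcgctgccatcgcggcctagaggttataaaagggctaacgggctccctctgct
PLOD2 (chr3:146161185-146161434, minus strand): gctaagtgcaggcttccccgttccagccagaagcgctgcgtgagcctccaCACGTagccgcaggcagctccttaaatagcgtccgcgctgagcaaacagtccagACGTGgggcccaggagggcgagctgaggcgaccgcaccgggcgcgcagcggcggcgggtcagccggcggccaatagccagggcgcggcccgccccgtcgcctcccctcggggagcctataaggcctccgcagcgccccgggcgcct
P4HA2 (chr5:132227092-132227341, minus strand): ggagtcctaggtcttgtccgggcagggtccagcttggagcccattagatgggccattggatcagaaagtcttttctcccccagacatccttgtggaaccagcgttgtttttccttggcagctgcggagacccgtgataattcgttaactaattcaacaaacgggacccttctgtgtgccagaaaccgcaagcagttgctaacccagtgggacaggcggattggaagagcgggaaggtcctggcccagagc
P4HB (chr17:81860536-81860785, minus strand): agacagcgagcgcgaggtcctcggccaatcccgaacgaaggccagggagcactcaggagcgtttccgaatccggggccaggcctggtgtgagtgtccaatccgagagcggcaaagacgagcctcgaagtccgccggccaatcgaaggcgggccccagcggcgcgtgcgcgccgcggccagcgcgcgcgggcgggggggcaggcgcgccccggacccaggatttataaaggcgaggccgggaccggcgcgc
The P4HA1 window has 1 match, with 81 bases between it and the start. The PLOD2 window has 2, with 195 and 141 bases between. The windows of P4HA2 and P4HB have 0, as do those of PLOD1, PLOD3 and PCOLCE, and 1 of the 2 windows of SERPINH1 has 1. Since other forms of the core were not searched, a count of 0 does not show that the core is absent. None of the windows of these members holds CACGTG. The genes shown were picked by their response, and whether the matches have a part in the changes was not tested.

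SERPINH1 and PCOLCE differed between the lines. SERPINH1 (11:75273101-75283849) stood at 469 and 472 FPKM in the controls of line 1 and at 472 and 487 after SUPT4H1 siRNA. In line 2 it stood at 509 and 508 against 400 and 406 FPKM. The groups overlapped in line 1 and were well apart in line 2, where 79.2% of the control level was left. The change was 0.026 in line 1 (95% interval -0.034 to 0.086, adjusted p = 0.489) and -0.335 in line 2 (adjusted p = 2.83e-05), and the difference of -0.36 passed (adjusted p = 0.00101), as it did in all 15 alternative fits (adjusted p up to 0.0109). Over both lines SERPINH1 did not pass (-0.15, adjusted p = 0.093), except without SUPT4H1 line 1 replicate 2 (adjusted p = 0.0464).

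PCOLCE (7:100199882-100205798), the enhancer of procollagen C-proteinase, stood at 921 and 946 FPKM in the controls of line 1 and at 961 and 1000.2 after SUPT4H1 siRNA. In line 2 it stood at 534 and 536 against 380 and 378 FPKM. The SUPT4H1 siRNA samples were the higher ones in line 1 and the lower ones in line 2. PCOLCE fell in line 2 by 0.50 on the log2 scale (SE 0.029, adjusted p = 7.31e-06), to 70.9% of control, and stood at 105% in line 1 (0.071, adjusted p = 0.102). The difference of -0.57 between the lines was the largest among the members (95% interval -0.66 to -0.47, adjusted p = 1.77e-04), and it passed in all 15 alternative fits (adjusted p up to 0.00642). Over both lines the change of -0.21 had a wide interval, -0.44 to 0.016, and did not pass (adjusted p = 0.122).

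BMP1, the procollagen C-proteinase (8:22022653-22069840), changed little. It stood at 40.3 and 40.3 FPKM in the controls of line 1 and at 40.7 and 42.5 after SUPT4H1 siRNA, and at 38.9 and 38.3 against 42.3 and 42.5 in line 2. The groups did not overlap within a line, though in line 1 the gap was smaller than the spread of the SUPT4H1 siRNA replicates. BMP1 rose by 0.089 on the log2 scale (SE 0.027, adjusted p = 0.0274). The call was lost with no replicate block (adjusted p = 0.203), after median-ratio scaling (0.139), with the block by line and replicate number (0.0653), and without SUPT4H1 line 1 replicate 2 or any 1 of the 4 samples of line 2 (0.0599 to 0.0793). Of the 2 factors that act together on the C-propeptide, PCOLCE fell in line 2 and BMP1 rose there (0.13, adjusted p = 0.00632).

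Read by line, 4 members fell in line 1 (P4HA1, P4HA2, PLOD1 and PLOD2) and 1 rose (PLOD3), where 11.2% of all genes fell and 18.2% rose. In line 2, 5 fell (P4HA1, P4HA2, PLOD2, SERPINH1 and PCOLCE) and BMP1 rose, where 15.5% of all genes fell and 26.3% rose. The response differed between the lines in 5 of the 10 members, P4HA2, PLOD1, PLOD3, SERPINH1 and PCOLCE, against 8.87% of all genes. Of these, P4HA2, SERPINH1 and PCOLCE kept that call without any 1 of the 8 samples. For P4HA1 the difference between the lines was -0.11 (95% interval -0.23 to 0.019, adjusted p = 0.288).

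**Figure D3:**
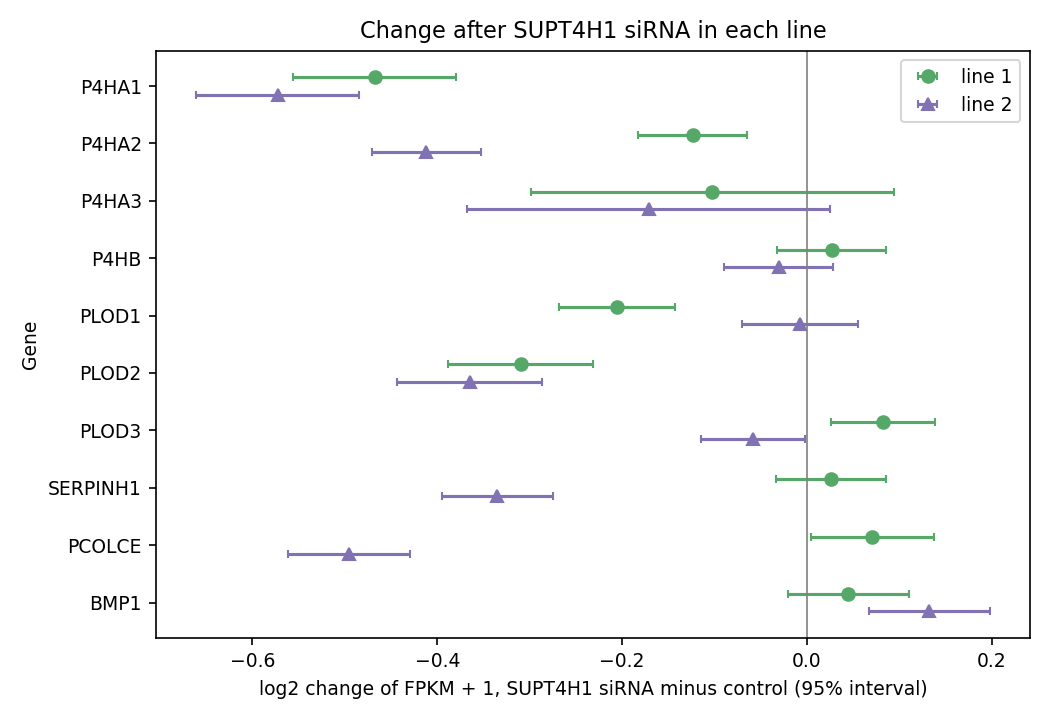
Change of log2(FPKM + 1) after SUPT4H1 siRNA in each line (SUPT4H1 siRNA minus control, 2 samples each), with 95% intervals from the fit of 4 group means. P4HA1 and PLOD2 are below 0 in both lines, and PCOLCE stands at 0.071 in line 1 and at -0.50 in line 2.

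Most of the tested collagen chains, the substrates of these enzymes, fell. Of 20 collagen chain genes tested, out of 44 listed, 14 fell and 0 rose, where 15.0% of all genes fell and 26.4% rose. Their median change was -0.24, and 4 fell with no replicate block. By line, 11 fell and 3 rose in line 1, 17 fell and 0 rose in line 2, and the response of 13 chains differed between the lines. Over all genes 11.2% fell and 18.2% rose in line 1, 15.5% fell and 26.3% rose in line 2, and 8.87% differed. COL12A1, a chain on the surface of fibrils, fell from 320 ± 29.1 to 160 ± 7.33 FPKM (SD, n = 4 each, log2 change -0.99, adjusted p = 2.11e-06), and COL5A3, a minor chain of type V collagen, from 26.3 ± 1.45 to 18.7 ± 3.13 FPKM (-0.48, adjusted p = 2.75e-04). COL6A3 fell by 0.47, and it is, like COL3A1 and COL5A1, also among the fibroblast markers above. COL15A1 fell by 0.32 in line 1, to 80.1% of control, and by 1.95 in line 2, to 23.8%, a difference that passed (adjusted p = 4.64e-06), and its call over both lines (adjusted p = 0.012) was lost with no replicate block (0.708). COL1A1 and COL1A2, the main substrates, are listed at 0 with a status of too much data in all 4 controls, and COL1A2 also in 1 SUPT4H1 siRNA sample, so no change can be given for them.

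The other enzymes acting on the same chains moved in mixed directions. Of 12 genes of prolyl 3-hydroxylation and collagen prolyl isomerases, 3 rose and 2 fell over both lines (median 0.024), where 26.4% of all genes rose and 15.0% fell. In line 1, 7 rose and 1 fell, in line 2, 2 rose and 5 fell, and 4 differed between the lines by the test of the difference. The shares over all genes were 18.2 and 11.2% in line 1, 26.3 and 15.5% in line 2, and 8.87% for the difference. LEPREL1, a prolyl 3-hydroxylase, rose from 1.66 ± 0.64 to 2.2 ± 0.635 FPKM (adjusted p = 0.00308), FKBP14 and FKBP7 rose by 0.18 and 0.20, and FKBP11 fell by 0.24. FKBP7 rose in line 1 (0.33, adjusted p = 3.14e-04) and did not pass in line 2 (0.065, adjusted p = 0.186), a difference that passed (adjusted p = 0.0161). Both tested genes of the hydroxylysine glycosylation list rose. COLGALT1, the galactosyltransferase that acts on hydroxylysine, rose from 38.7 ± 3.61 to 44.7 ± 3.71 FPKM (log2 change 0.20, adjusted p = 2.13e-04), and CERCAM, a relative of it, rose by 0.29 (adjusted p = 1.76e-04). None of these calls held with no replicate block (adjusted p = 0.193 to 0.709 for the genes FKBP11, COLGALT1, FKBP14, CERCAM, LEPREL1 and FKBP7).

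Among 5 tested genes of propeptide removal and its relatives, out of 10 listed, 2 fell and 1 rose, where 15.0% of all genes fell and 26.4% rose. ADAMTS2, the procollagen N-proteinase, fell from 49.1 ± 0.894 to 40.5 ± 1.1 FPKM (log2 change -0.27, adjusted p = 1.37e-04, and 0.00795 with no replicate block). PCOLCE2, a relative of PCOLCE, rose by 0.47 (adjusted p = 0.00404, and 0.638 with no replicate block), with 0.22 in line 1 and 0.71 in line 2, a difference that passed (adjusted p = 0.00221). CHRD, an antagonist of bone morphogenetic proteins that BMP1 relatives cleave, fell from 3.29 ± 0.73 to 1.7 ± 0.421 FPKM (adjusted p = 4.41e-05, and 0.0468 with no replicate block). All 5 lysyl oxidases, which cross-link the finished fibrils, had changes below 0, as had 4622 of all 11486 genes tested. Of the lysyl oxidases 3 fell: LOXL3 by 0.55, LOXL1 by 0.41 and LOXL2 by 0.30. None of these 3 passed with no replicate block (adjusted p = 0.487 to 0.83). LOXL2 changed by -0.11 in line 1 and by -0.48 in line 2, a difference that passed (adjusted p = 0.00152). For LOXL1 and LOXL3 the difference between the lines did not pass (adjusted p = 0.622 and 0.959).

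Genes of procollagen export and general folding showed small changes. Their counts stand beside 26.4% of all genes that rose and 15.0% that fell. Of 23 export genes 5 rose and 5 fell (median -0.007), with SEC24A, a coat protein of export vesicles, at the low end with 12 ± 0.292 and 10.1 ± 0.162 FPKM (SD, n = 4 each, log2 change -0.22, adjusted p = 3.33e-04), and SEC23B at the high end, 0.21. LMAN1 fell by 0.15, a call lost without SUPT4H1 line 2 replicate 1 or 2 (adjusted p up to 0.0529), and CREB3L2 fell by 0.13. With no replicate block the calls of SEC23B (adjusted p = 0.0682), LMAN1 (0.196) and CREB3L2 (0.614) were lost, and that of SEC24A held (0.00959). Of 19 chaperones and disulfide isomerases of the endoplasmic reticulum 1 rose and 5 fell (median -0.004). ERO1L, the oxidase that recharges disulfide isomerase, fell from 18.1 ± 3.17 to 14.8 ± 2.19 FPKM (log2 change -0.27, adjusted p = 8.44e-04, and 0.34 with no replicate block). ERO1LB fell by 0.15, a call lost without control line 2 replicate 1 or either SUPT4H1 siRNA sample of line 2 (adjusted p up to 0.0671) and with the block by line and replicate number (0.0597). TXNDC5 fell by 0.11, and ERP29 rose by 0.14. With no replicate block none of ERP29 (adjusted p = 0.161), TXNDC5 (0.346) and ERO1LB (0.721) passed.

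P4HA1, P4HA2 and PLOD2 are known targets of hypoxia-inducible factors, as background. Of 28 other targets of these factors tested, 25 fell and 0 rose, where 15.0% of all genes fell, with a median of -0.286. This list was chosen with earlier results of these data known, so its count is a description. By line 25 fell and 1 rose in line 1, where 11.2% of all genes fell and 18.2% rose. In line 2, 23 fell and 1 rose, where 15.5% of all genes fell and 26.3% rose. With no replicate block 3 fell, where 1.73% of all genes fell. The response of 11 of the targets differed between the lines, where 8.87% of all genes differed. ADM, the gene of adrenomedullin, fell from 581 ± 32 to 333 ± 12.4 FPKM (log2 change -0.80, SE 0.031, adjusted p = 1.94e-06), and VEGFA, the vessel growth factor, from 52.3 ± 4.81 to 32.3 ± 0.826 FPKM (-0.67, adjusted p = 3.95e-05). SLC2A1, a glucose transporter that also carries oxidised vitamin C, and BHLHE40 fell by 0.67 and 0.78, calls that were lost with no replicate block (adjusted p = 0.496 and 0.384). By the test of the difference, the lines differed in VEGFA (adjusted p = 0.0129), SLC2A1 (0.00269) and BHLHE40 (0.0289), and ADM did not pass (0.473). Whether the changes of these factors' targets and of P4HA1, P4HA2 and PLOD2 have a common source was not tested. The list shares LOX, SLC2A1, KDM3A, EGLN1 and EGLN3 with other lists described here.

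**Figure D4:**
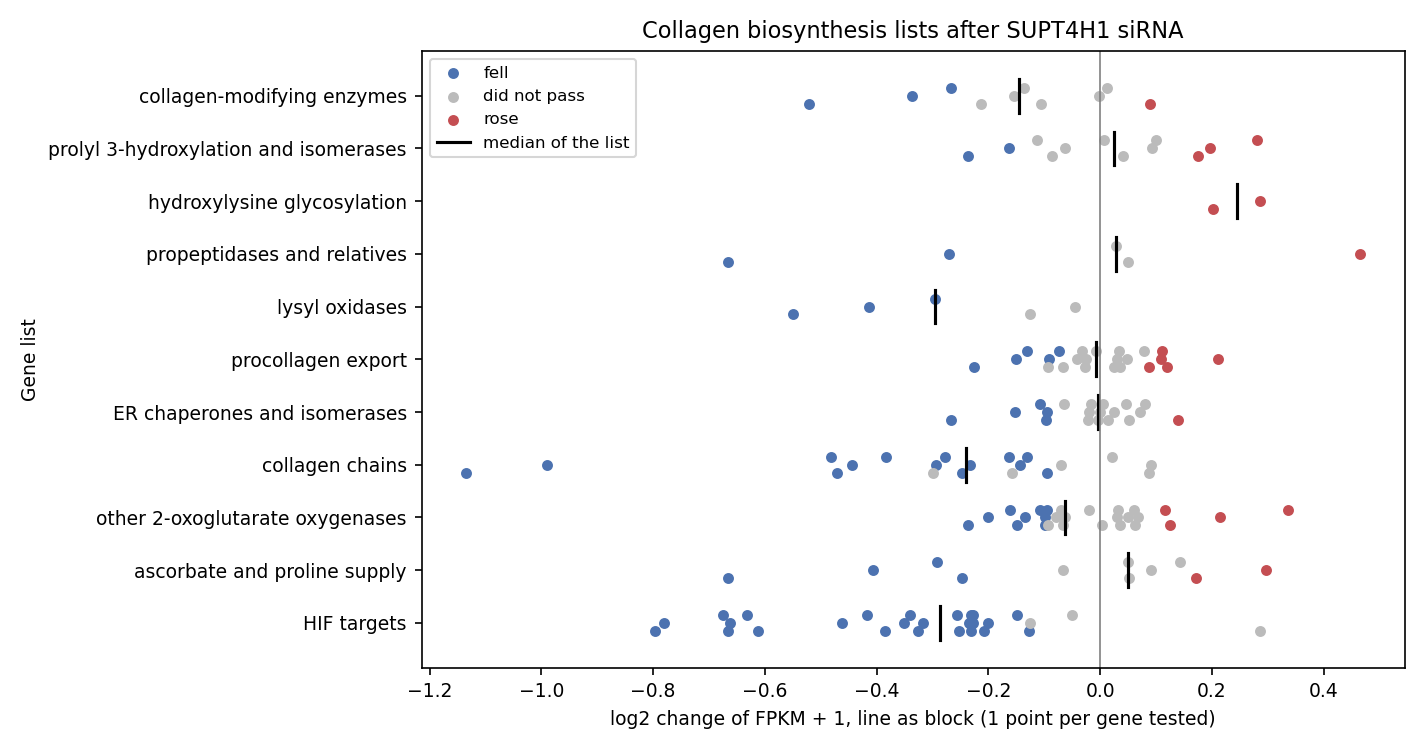
Change of log2(FPKM + 1) with the line as block for each tested gene of the collagen biosynthesis lists, 1 point per gene, coloured by call, with a black bar at the median of each list. The HIF targets (median -0.286) and the collagen chains (median -0.24) lie mostly below 0, and the 10 collagen-modifying enzymes (median -0.146) spread from -0.52 to 0.089. The lists were chosen with earlier results of these data known.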

How the data were processed

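Per the labels, RNA was sequenced from libraries of polyadenylated RNA. The authors deposited FPKM values with interval bounds and a status per gene, on hg19 per the submitters' processing notes. The sources used here name no aligner, quantification tool, annotation or strand setting. Rows of one symbol were summed. Testing required a mean of 1 FPKM or more and a status of OK in each of the 8 samples, and 12 genes of that level were left out for their status. The test was limma 3.58.1 (R 4.3.3) on log2(FPKM + 1) with a mean-variance trend, 2-sided, with the line as block (5 residual degrees of freedom). A fit of 4 group means (4 residual degrees of freedom) gave each line's response and the difference between lines. A log2 change on this scale understates changes of low genes, and intervals of changes are 95% intervals from these fits. FPKM are relative values, so a rise of abundant transcripts lowers all others. Samples of a line share their cells. Control and SUPT4H1 siRNA samples of one line deviated together from the mean of their siRNA over both lines (correlations 0.713 to 0.81 across genes). These correlations include the difference between the lines. Relative depth came from rows whose deposited interval has the width of 1, 2 or 3 fragments, within a tolerance of 0.005. The total number of fragments is not given. The deposited intervals reached a median of 14.9 to 17.5% to either side for genes of 1 to 2 FPKM and 3.44 to 3.7% from 100 FPKM upwards. For PCOLCE they were 4.22% at 921 FPKM (control line 1 replicate 1) and 4.39% at 378 FPKM (SUPT4H1 line 2 replicate 2). They thus hold more than counting error, and what they cover is not stated in the sources used here. The fits were tested on simulated data. Alternatives were no block, a block by line and replicate number, a pseudocount of 0.1, no filter or a filter at 5 FPKM, median-ratio scaling, no trend, array weights, symbols with several rows left out, and leaving out each sample. The members and gene lists were chosen with earlier results of these data known. Named genes are all members, SUPT4H1, and per pathway list up to 4 called genes with the largest absolute change. Summaries were made in Python 3.11.15 with pandas 2.3.3 and numpy 2.4.6, and figures with matplotlib 3.10.9.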

Additional observations from a re-analysis of the deposited data

Results flagged for a closer look

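The response to SUPT4H1 siRNA differed between the lines in 5 of the 10 members by the test of the difference itself (limma, 4 group means, line 2 minus line 1, adjusted over all genes). By the same test 8.87% of all genes differed. Among the members the differences in log2 change were -0.57 for PCOLCE (adjusted p = 1.77e-04), -0.36 for SERPINH1 (0.00101) and -0.29 for P4HA2 (0.00222). They were 0.20 for PLOD1 (0.0173) and -0.14 for PLOD3 (0.0418). For PCOLCE, both SUPT4H1 siRNA samples were above both controls in line 1 and below both in line 2. The PLOD1 and PLOD3 differences were lost without single samples.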

How the results depend on the processing

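With no replicate block the counts were 405 rises and 199 falls over all genes, against 3036 and 1724 with the line as block, and 0 rises and 1 fall among the members, against 1 and 3. The members' rise, BMP1, was also lost (0 rises) with the replicate block by line and replicate number and after median-ratio scaling, and without single samples the members' rises were 0 to 1. The replicate numbers within a line deviated together only weakly (correlations 0.196 and 0.0846), and that block gave 2528 rises and 1411 falls. Median-ratio scaling gave 2302 rises and 2288 falls, which makes rises 50.2% of all calls, compared with 63.8%. Leaving out each sample left 1239 to 2093 rises and 826 to 1260 falls within line 1, with moves of over 1.5 times without control replicate 1 or 2 or, for rises, SUPT4H1 replicate 1 of that line. It left 518 to 770 genes that differed between the lines, and all samples but SUPT4H1 line 1 replicate 1 and control line 2 replicate 2 moved that count by over 1.5 times. Such fits leave groups of 1 sample, which is assumed to vary like the others. Of the 5 members that differed between lines, 3 remained with no mean-variance trend and 3 to 4 without single samples, with PLOD1 and PLOD3 as the members lost. Signs turned only where changes were near 0 and did not pass. P4HB was 0.0003 with array weights, and -0.0096 to 0.0111 without single samples. PLOD3 was -0.0229 after scaling and -0.0083 to 0.0292 without single samples. After scaling, line 1 changes of P4HB and SERPINH1 were -0.003 and -0.0036. Without single samples the line 2 change of PLOD1 was -0.0363 to 0.0212, and the difference between lines in P4HA3 was -0.1543 to 0.017. P4HA3 has no value under the filter at 5 FPKM. Among the members the deposited intervals are widest for P4HA3 (12.9 to 16.8%), and no limit on depth beyond these intervals can be given.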

Other observations

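The cofactor and substrate supply of the hydroxylases was mixed. The counts in this paragraph stand beside 26.4% of all genes that rose and 15.0% that fell. Of 11 genes of ascorbate and proline supply tested, 2 rose and 4 fell (median 0.05). SLC2A3, a glucose transporter that also carries oxidised vitamin C, fell from 18.1 ± 5.38 to 13.6 ± 4.79 FPKM (SD, n = 4 each, limma with the line as block, adjusted p = 3.36e-05), SLC1A4, a neutral amino acid transporter, fell by 0.29 and GSTO1, which can reduce dehydroascorbate, rose by 0.30 on the log2 scale. Among 27 other oxygenases that use iron and 2-oxoglutarate, 4 rose and 9 fell (median -0.063). PHYH, a peroxisomal hydroxylase of phytanoyl-CoA, rose from 12.8 ± 1.03 to 16.4 ± 0.655 FPKM (log2 change 0.34, adjusted p = 1.18e-04, and 0.0228 with no replicate block). ASPH, an aspartyl hydroxylase of the endoplasmic reticulum, fell from 173 ± 4.39 to 147 ± 10.9 FPKM (adjusted p = 6.90e-04). EGLN2, a prolyl hydroxylase of hypoxia-inducible factors, rose by 0.22, and KDM3A, a histone demethylase, fell by 0.20. With no replicate block the calls of SLC1A4 (adjusted p = 0.0649), ASPH (0.0756), GSTO1 (0.123), KDM3A (0.318) and SLC2A3 (0.492) were lost, and that of EGLN2 held (0.0388).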
